A study of Drosophila melanogaster with 12 samples.

Results

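The regions described here are the ChIP-seq peaks called on the heterochromatic and unplaced scaffolds of the fruit fly Drosophila melanogaster genome in S2 cells. All peaks placed on the scaffolds 2LHet, 2RHet, 3LHet, 3RHet, XHet, YHet, U or Uextra of the dm3 assembly were taken, which gave 1668 of the 19365 peaks in 8 lists. Of these, 1572 came from the 4 H1 lists and 96 from the 4 dBigH1 lists, and the other 17697 peaks lay on the arms 2L, 2R, 3L, 3R, X and 4. The study immunoprecipitated sonicated chromatin with a polyclonal antibody against dBigH1 or against H1, each in 2 libraries of induced and 2 of control cells. Induced cells are S2 cells labelled as carrying wild-type BigH1 induced at 1 mM, and control cells are labelled as wild-type S2. The protocols name FLAG-tagged dBigH1 lines kept under hygromycin, and 1 mM copper sulphate for 24 h in the same words for every sample, so whether control cells received copper is not clear. The promoter of the transgene and whether a line is 1 clone are not given in the sources used here. The 4 input samples were not analysed here.

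Linker histones bind the nucleosome where DNA enters and leaves it and favour compact chromatin. H1 is the somatic linker histone of the fly, and dBigH1 is the variant of the early embryo and the germline, where it is replaced by H1. S2 is an established line derived from late embryos. The Het scaffolds hold assembled pericentric sequence of the chromosome they are named for, rich in transposon remnants, and U and Uextra gather sequence that could not be placed, much of it repetitive and some of doubtful quality. Reads that match many places can be dropped or placed at random by an aligner, and how that was done is not given in the sources used here.

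A peak is a stretch where the caller found local enrichment, so a histone spread evenly along a scaffold gives few peaks. Peaks and scores are the authors' values. The lists hold no read counts, so depth is unknown and the lack of a peak does not show that the protein was absent. Full lists held 3545 and 5182 H1 peaks in induced cells against 3814 and 5072 in control cells, and 196 and 238 dBigH1 peaks in induced cells against 599 and 719 in control cells (replicate 1, then replicate 2, here and throughout). The labels do not say whether the replicates came from separate cultures, so p-values measure only the spread between these libraries. With 2 libraries against 2, the exact permutation test has 6 arrangements and no p below 0.333.

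H1 peaks on the scaffolds lay mostly on the large Het scaffolds and on U. On 2RHet there were 95 and 150 H1 peaks in induced cells and 86 and 105 in control cells. On 3LHet there were 101 and 135 in induced cells and 91 and 105 in control cells. On 3RHet there were 55 and 107 in induced cells and 39 and 61 in control cells. These 3 scaffolds are the assembled pericentric parts of the large autosome arms, and on each the induced and control counts overlapped. U held 71 and 112 H1 peaks in induced cells and 73 and 85 in control cells. The smaller sets were those of Uextra, with 15 and 27 in induced cells and 12 and 15 in control cells, and of 2LHet, with 6 and 11 in induced cells and 7 and 6 in control cells. XHet had 1 peak in each replicate 2 library and 0 in the others, and YHet had none in any of the 8 lists.

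**Figure D1:**
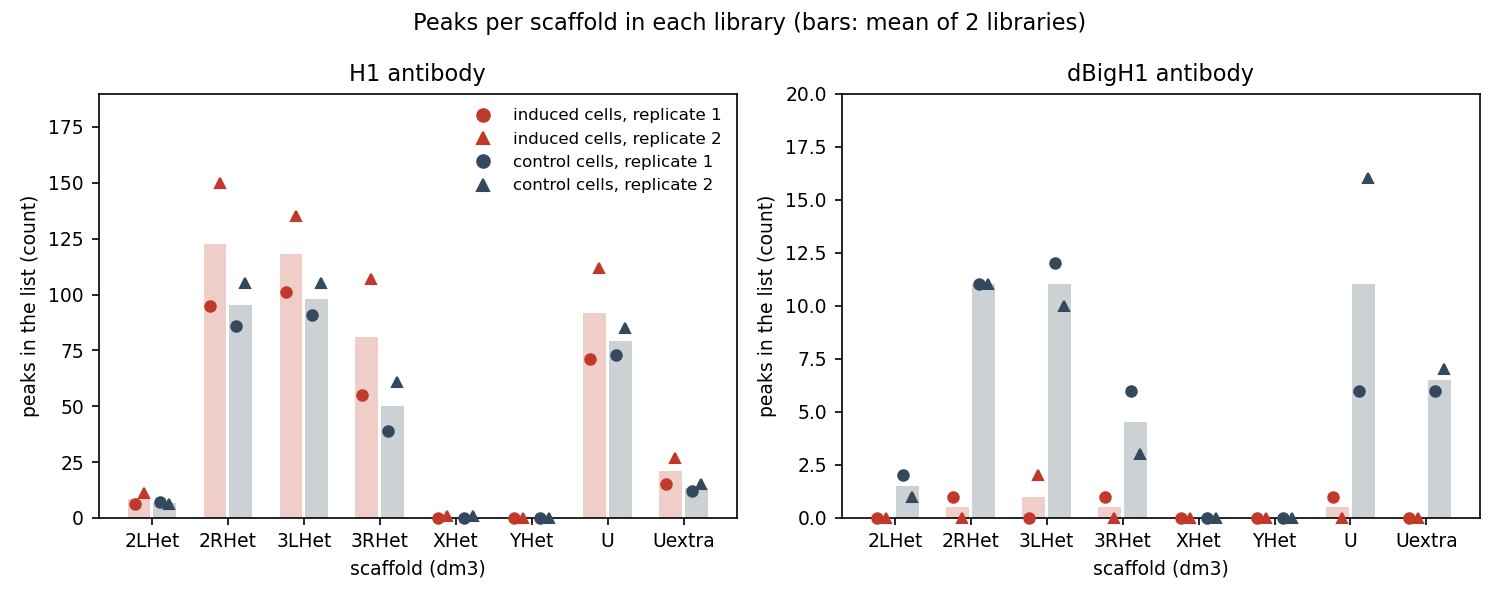
Number of peaks (vertical axis, count) on each of the 8 scaffolds (horizontal axis) with the H1 antibody (left panel) and the dBigH1 antibody (right panel, its own scale), as points for each library and bars for the mean of 2 libraries. For H1, 3RHet has 55 and 107 peaks in induced and 39 and 61 in control cells; for dBigH1, 2RHet has 1 and 0 in induced and 11 and 11 in control cells.

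Per Mb, the Het scaffolds carried H1 peaks at a rate close to that of the arms, and the unplaced scaffolds at a much lower one. The end of the last peak on a scaffold, over the 8 lists, stood for its length, so densities on a scaffold with an empty end are upper values. The Het scaffolds pooled had 29.98 and 47.1 H1 peaks per Mb in induced cells and 26.0 and 32.4 in control cells. The arms had 26.9 and 38.9 per Mb in induced cells and 29.4 and 39.4 in control cells. On the large autosome arms alone (2L, 2R, 3L and 3R), the rate was 32.7 and 47.4 per Mb in induced cells and 35.7 and 47.8 in control cells. The Het rate was above that of all arms in both induced libraries, and below that of the large autosome arms in 4 of 4 libraries. The densest scaffold of useful length was 3LHet, with 39.7 and 53.04 per Mb in induced cells against 35.8 and 41.3 in control cells. U had 7.95 and 12.5 per Mb in induced cells and 8.17 and 9.52 in control cells. Uextra, the longest scaffold at 27.5 Mb, had under 1 per Mb in each library (0.546 and 0.982 in induced, 0.437 and 0.546 in control cells). XHet ends at 3145 bp by this measure and YHet has no extent, so no density is given for them.

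H1 peaks were unevenly spread within the unplaced sequence. Scaffolds were divided into 452 windows of 100 kb, of which 123 held an H1 peak midpoint in some library. No H1 peak fell in 59 of the 90 windows of U or in 268 of the 275 windows of Uextra. The occupied windows of Uextra ran from 1 to 600000, apart from 1000001 to 1100000, which held 1 peak in induced replicate 2. On the Het scaffolds the empty windows were 1 of 33 on 2RHet, 1 of 26 on 3LHet and 0 of 25 on 3RHet. The 18 richest windows of U held 87.4% of its H1 peaks. The window U 1300001 to 1400000 held 9 and 10 peaks in induced cells and 14 and 13 in control cells. The window 2RHet 1900001 to 2000000 held 7 and 16 in induced cells and 4 and 9 in control cells.

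The next comparison asked whether the scaffolds gained or lost H1 peaks where dBigH1 was induced. There were 343 and 543 H1 scaffold peaks in induced cells and 308 and 378 in control cells. The groups overlapped, because the lower induced count lies below the higher control count. The log2 ratio was 0.34, or 1.26-fold, with an exact two-sided permutation p of 0.667. Covered length was 766 and 1227 kb in induced cells and 670 and 822 kb in control cells (log2 ratio 0.39, exact permutation p = 0.667). Within replicate numbers, the log2 ratio of peak number was 0.16 for replicate 1 and 0.52 for replicate 2.

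As a share of each list, the H1 scaffold peaks did separate the conditions. They made up 9.68% and 10.5% of the induced lists and 8.08% and 7.45% of the control lists. The ratio of scaffold to arm peaks was 0.107 and 0.117 in induced cells and 0.0878 and 0.0805 in control cells, a log2 difference of 0.41 (1.33-fold) at an exact permutation p of 0.333, the smallest possible. Shares of the list were higher in both induced libraries than in both control libraries on 2RHet, 3LHet, 3RHet, U and Uextra. They overlapped on 2LHet and XHet. On log2(number + 1), the 4 scaffolds with the most H1 peaks differed by 0.64 (3RHet), 0.33 (2RHet), 0.25 (3LHet) and 0.18 (U), and no scaffold passed (Benjamini-Hochberg adjusted exact permutation p = 1). On U the difference was -0.0395 without replicate 2 and -0.032 with scores of 100 or more.

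The difference in share was larger among the highest-scoring H1 peaks. Of the 100 H1 peaks with the highest scores in each list, 29 and 22 lay on the scaffolds in induced cells and 14 and 14 in control cells, a log2 ratio of 0.85. Of the highest 500, 77 and 83 did so in induced cells and 57 and 49 in control cells (log2 ratio 0.60). Of the highest 1000, the scaffolds held 127 and 131 in induced cells and 107 and 85 in control cells (log2 ratio 0.44). The groups did not overlap at any of these 3 lengths, each at an exact permutation p of 0.333, the smallest possible. The lengths were chosen after the lists had been seen.

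**Figure D2:**
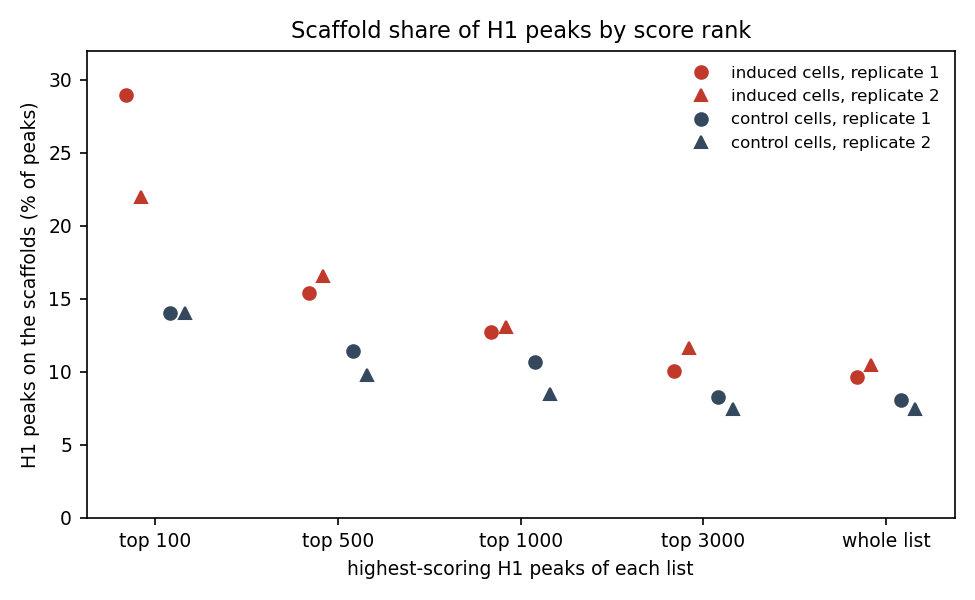
Share of scaffold peaks (vertical axis, %) among the highest-scoring H1 peaks of each list, at 4 list lengths and in the whole list (horizontal axis), as a point for each library. At 100 peaks the induced libraries stand at 29 and 22 scaffold peaks and the control libraries at 14 and 14, and at 1000 peaks at 127 and 131 against 107 and 85.

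Pooled over the scaffolds, H1 peaks were narrower than those on the arms and had higher scores within their list. Median width on the scaffolds was 1852 and 1847 bp in induced cells and 1790 and 1796 bp in control cells. On the arms it was 2409 and 2431 bp in induced cells and 2181 and 2346 bp in control cells. Scaffold peaks were narrower in 4 of 4 H1 lists, with a mean log2 ratio of -0.36 (exact sign-flip permutation p = 0.125, the smallest of 16 sign patterns). The median rank of the score, on a scale where 100 is the highest peak of the list, was 56.4 and 56.4 on the scaffolds in induced cells and 59.5 and 54.3 in control cells. On the arms it was 49.5 and 49.3 in induced cells and 49.3 and 49.7 in control cells. The pooled scaffolds were higher in 4 of 4 lists by a mean of 7.19 points (exact sign-flip permutation p = 0.125). By scaffold, 2RHet and U were above the arms in each H1 list and 2LHet was below in each, while the others varied. On 2LHet the median rank was 31.3 and 28.4 in induced cells and 25.8 and 46.0 in control cells.

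**Figure D3:**
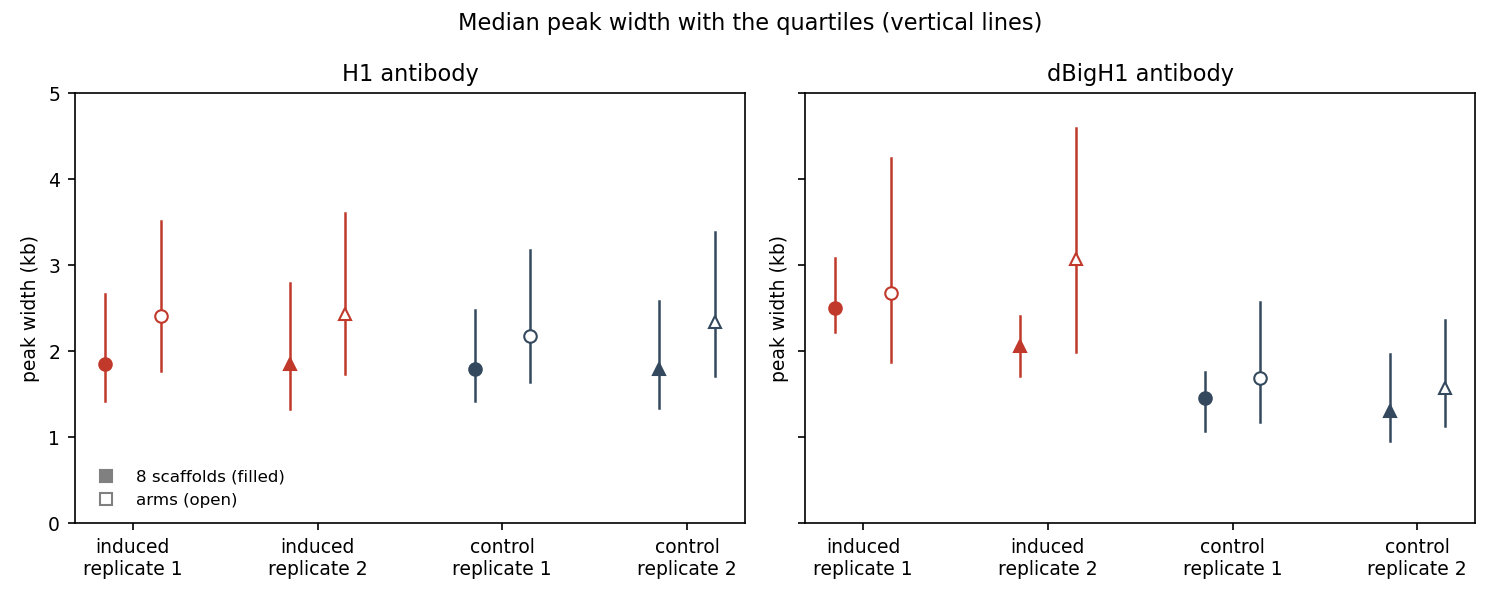
Median peak width in kb (vertical axis, points) with the quartiles (vertical lines) for scaffold peaks (filled) and arm peaks (open) in each library, H1 on the left and dBigH1 on the right. H1 scaffold medians lie between 1790 and 1852 bp and H1 arm medians between 2181 and 2431 bp; the induced dBigH1 scaffold points rest on 3 and 2 peaks.

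Most H1 scaffold peaks recurred in the other library of their group. In induced cells 307 of 343 replicate 1 peaks (89.5%, exact 95% interval 85.8 to 92.5) overlapped a replicate 2 peak by 1 bp or more, and 299 of 543 replicate 2 peaks (55.1%) overlapped a replicate 1 peak. In control cells the shares were 242 of 308 (78.6%, 73.6 to 83.0) and 241 of 378 (63.8%). The shorter list thus had the higher share in each group. On the arms the shares were 75.6% and 50.6% in induced cells and 72.7% and 53.9% in control cells, below the scaffolds in each library, a difference that was not tested. Binomial intervals cover counting error only, and peaks of 1 library are not replicates. Among the larger scaffolds U had the highest replicate 1 shares, 94.4% in induced and 89.0% in control cells. For replicate 2 the order differed: U had 58.0% in induced and 75.3% in control cells, 3LHet 63.7% in induced and 64.8% in control cells, and 3RHet had the lowest shares, 46.7% in induced and 50.8% in control cells.

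Overlapping H1 peaks of the 4 libraries were merged into 6653 regions, of which 589 lay on the scaffolds. All 4 libraries held 185 of these 589 (31.4%, exact interval 27.7 to 35.3), against 21.7% of all H1 regions and 20.7% of those on the arms. The others were held by 3 libraries (114), 2 libraries (105) or 1 library (185). The share held by all 4 was 41.4% on U (48 of 116), 34.4% on 3LHet (53 of 154), 31.9% on 2RHet (51 of 160) and 21.1% on 3RHet (24 of 114). Scaffold regions held by all 4 had a median width of 2865 bp, and such arm regions 4856 bp.

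**Figure D4:**
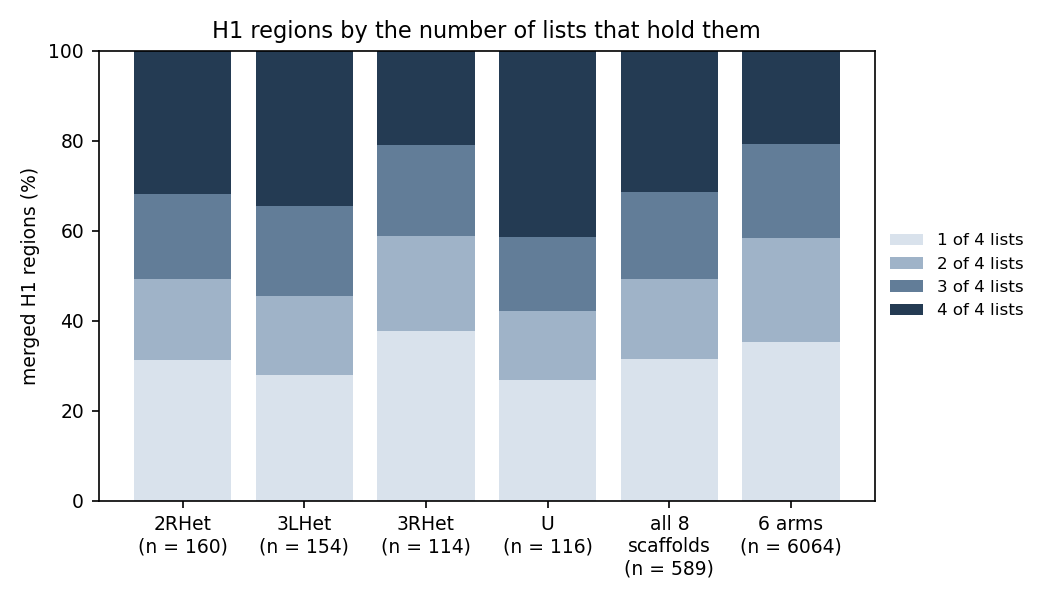
Share of merged H1 regions (vertical axis, %) held by 1, 2, 3 or 4 libraries (shades, light to dark) on the 4 scaffolds with the most H1 peaks, on all 8 scaffolds and on the 6 arms. Regions held by all 4 are 31.4% of the 589 scaffold regions and 20.7% of the arm regions.

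The H1 region held by all 4 libraries that ranked best by score (mean rank 18) was 3RHet 417248 to 423883 (dm3, counted from 1). Its scores were 528 and 899 in induced cells and 612 and 660 in control cells. Next came 2RHet 725361 to 729859, with scores of 699 and 488 in induced cells and 597 and 893 in control cells. These sites stood near the top of each list whatever the condition. The region 3LHet 1089926 to 1093572 scored 651 and 634 in induced cells and 422 and 466 in control cells. The others of the first 10 were 2RHet 564197 to 570311, 2RHet 2444067 to 2448523, 3LHet 716595 to 724913, 3LHet 1048953 to 1053084, U 4476511 to 4480975, U 1248557 to 1252072 and 3RHet 193117 to 197485. The last of these ranked 3 and 4 in the induced lists and 141 and 284 in the control lists. Ranks are positions within lists of different length and show no change by themselves.

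Some H1 regions were found in both libraries of a condition while the opposite condition had none there, and on the scaffolds most of these were of the induced kind. There were 23 such induced-only regions among the 589 (3.90%, exact interval 2.49 to 5.80), against 3.07% of all H1 regions. There were 4 control-only regions (0.679%, 0.185 to 1.73), against 3.44% of all H1 regions. The induced share is near that of all regions, and the control share is below it. Joining peaks closer than 1000 bp left 15 induced-only and 3 control-only regions. Induced-only regions numbered 9 on 3RHet, 6 on 3LHet, 4 on U, 3 on 2RHet and 1 on Uextra.

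These condition-specific H1 regions lay well below the top of their lists, and many were close to a peak of the other condition. The induced-only region with the best mean rank (1290), 2RHet 1899894 to 1902913, scored 117 and 186, and the next, 2RHet 982070 to 985015, scored 86.6 and 226. The nearest control H1 peak lay at a median of 3.15 kb from the 23 regions, within 1 kb for 6 and within 5 kb for 14. The 181 induced-only regions of the arms lay closer to one, at a median of 1.28 kb and within 1 kb for 83. The farthest, 290 kb away, was from U 6109667 to 6110370, which scored 81.9 and 93.8. Control-only regions were U 1063350 to 1064520 (scores 59.7 and 98.3), 3LHet 685509 to 686581, 2LHet 38935 to 40281 and 3LHet 715124 to 716192.

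Counts in windows leaned the same way on the scaffolds. Both induced libraries had more H1 peaks than both control libraries in 16 of 452 windows (3.54%), against 2.91% of all windows. Both control libraries had more in 2 windows (0.442%), against 5.28% of all windows. These percentages count windows without an H1 peak, which were more common on the scaffolds. An H1 peak was held by 123 of 452 scaffold windows and 747 of 1195 arm windows. On the arms 32 windows were of the induced kind and 85 of the control kind. On 3RHet there were 5 windows of the induced kind and 0 of the control kind.

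With the dBigH1 antibody, the scaffolds were nearly without peaks in induced cells. There were 3 and 2 dBigH1 scaffold peaks in induced cells and 43 and 48 in control cells, or 1.53% and 0.840% of the induced lists and 7.18% and 6.68% of the control lists. The groups did not overlap, and the log2 ratio was -4.21, or 18.5-fold lower in induced cells (exact permutation p = 0.333, the smallest possible). Covered length was 8.13 and 4.13 kb in induced cells and 68.1 and 68.8 kb in control cells (log2 ratio -3.56). Relative to the arms, the scaffolds were 6.48-fold lower in induced cells (log2 difference -2.70, exact permutation p = 0.333). The size of this difference depended on the length of the lists. Cut to the 196 highest-scoring peaks each, the lists held 3 and 2 scaffold peaks in induced cells and 5 and 7 in control cells (log2 ratio -1.27). At that length the log2 ratio of covered length was -0.81 and the log2 difference relative to the arms was -1.30. In lists cut to 150 peaks these 3 values were -0.87, -0.35 and -0.89, and for covered length the groups then overlapped (exact permutation p = 1). With scores of 100 or more, the numbers were 0 and 0 in induced cells and 8 and 13 in control cells, and the log2 difference relative to the arms was -0.33 with overlapping groups (exact permutation p = 0.667).

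Control dBigH1 peaks were found on each scaffold except XHet and YHet. On 2RHet there were 1 and 0 dBigH1 peaks in induced cells and 11 and 11 in control cells, and on 3LHet 0 and 2 in induced cells and 12 and 10 in control cells. On U there were 1 and 0 in induced cells and 6 and 16 in control cells, and on 3RHet 1 and 0 in induced cells and 6 and 3 in control cells. Uextra had none in induced cells and 6 and 7 in control cells, and 2LHet none in induced cells and 2 and 1 in control cells. The control counts thus exceeded the induced counts on each of these 6 scaffolds, and no scaffold passed (adjusted exact permutation p = 0.444). In lists cut to the 196 highest-scoring peaks, 3RHet had a log2 difference of 0.50, the other way, which rests on 1 peak in induced replicate 1. Per Mb, the Het scaffolds had 0.233 and 0.233 dBigH1 peaks in induced cells and 3.62 and 2.92 in control cells. The arms had 1.62 and 1.98 in induced cells and 4.66 and 5.63 in control cells.

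Control dBigH1 scaffold peaks were narrower than those on the arms, and a minority recurred. Median width on the scaffolds was 2502 and 2063 bp in induced cells and 1455 and 1303 bp in control cells, against 2683 and 3074 bp on the arms in induced cells and 1685 and 1576 bp in control cells. In control cells the medians on X alone, 1178.5 and 1169 bp, were below those on the scaffolds. On the large autosome arms they were 1819 and 1676 bp. Scaffold peaks were narrower than those of all arms in 4 of 4 lists (mean log2 ratio -0.29, exact sign-flip permutation p = 0.125, the smallest possible). The log2 ratios were -0.21 and -0.27 in control cells. In induced cells they were -0.10 and -0.58 and rest on only 3 and 2 scaffold peaks. None of the 3 and 2 induced scaffold peaks overlapped a peak of the other induced library. In control cells 13 of 43 (30.2%, exact interval 17.2 to 46.1) and 13 of 48 (27.1%, 15.3 to 41.9) did. On the arms 63.1% and 52.3% of control peaks recurred, a difference that was not tested. The scaffold share of the shorter list moved with the cut. It was 80% of only 5 peaks in lists of equal length and 62.5% of only 8 peaks with scores of 100 or more. No arm share is given at these cuts.

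Merging gave 79 dBigH1 regions on the scaffolds, of which 63 were held by 1 library, 15 by 2 and 1 by 3. Regions present in both control lists and missing from both induced lists numbered 12 of the 79 (15.2%, exact interval 8.10 to 25), against 27.2% of all dBigH1 regions. There were 0 induced-only regions, against 2.45% of all dBigH1 regions, and 0 held by all 4 libraries, against 0.317%. The best ranked of the 12 was 2RHet 3198923 to 3201015, which tied for the highest score, 3100, in both control lists. Next came Uextra 26599147 to 26599729 with scores of 1138 and 1349, and 3LHet 1396293 to 1397440 with 893 and 641. The fourth, 3LHet 1090121 to 1093545, scored 181 and 165 and lies on the H1 region 3LHet 1089926 to 1093572 that all 4 H1 libraries held. The other 8 ranked lower, among them 2RHet 471251 to 472372 (112 and 92.8) and Uextra 5223878 to 5224585 (53.2 and 302).

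The 5 dBigH1 scaffold peaks of induced cells had scores of 54.8 to 90.7. In replicate 1 they were 2RHet 3231842 to 3235517 (score 54.8), 3RHet 1707358 to 1709859 (57.5) and U 2648918 to 2650866 (62.1). In replicate 2 they were 3LHet 1050787 to 1052151 (68.7) and 3LHet 1234169 to 1236928 (90.7). The 4 peaks other than that on 3RHet overlapped a dBigH1 peak of a control library and also an H1 peak from the matching induced library. On the arms, 35 of 193 (18.1%) and 51 of 236 (21.6%) induced dBigH1 peaks overlapped a control one.

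In control cells, dBigH1 peaks coincided with H1 peaks more often on the scaffolds than on the arms. The matching H1 list (condition and number alike) had a peak under 2 of 3 and 2 of 2 dBigH1 scaffold peaks in induced cells, and under 32 of 43 (74.4%, exact interval 58.8 to 86.5) and 36 of 48 (75%, 60.4 to 86.4) in control cells. On the arms the shares were 108 of 193 (56.0%) and 137 of 236 (58.1%) in induced cells, and 63 of 556 (11.3%, 8.82 to 14.3) and 133 of 671 (19.8%, 16.9 to 23.0) in control cells. Control libraries averaged 74.7% ± 0.411 on the scaffolds and 15.6% ± 6.004 on the arms (SD, n = 2). The difference of 59.1 points is larger than either spread, and its exact sign-flip permutation p is 0.5, the smallest that 2 libraries allow. This comparison of scaffolds with arms was chosen after the data had been seen. The difference was 40.1 points in lists of equal length and 22.2 points among the highest 1000 H1 and 150 dBigH1 peaks. The first of these rests on only 5 and 7 control dBigH1 scaffold peaks, and the second on only 4 and 5. The induced shares on the scaffolds rest on 5 peaks. They exceeded the control shares by a mean of 8.62 points (exact permutation p = 1), and the difference ran from -7.75 points without replicate 2 to 60.8 points among the highest 1000 H1 and 150 dBigH1 peaks.

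**Figure D5:**
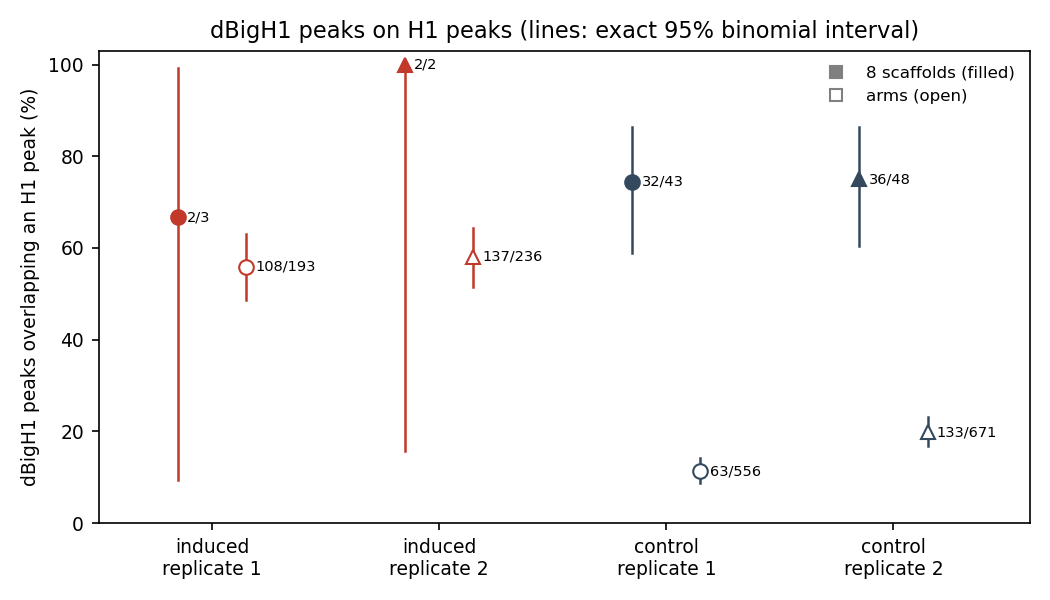
Share of dBigH1 peaks lying on a peak of the matching H1 list (vertical axis, %), on the scaffolds (filled) and the arms (open), with exact 95% binomial intervals as lines and counts beside the points. Control libraries stand at 74.4% and 75% on the scaffolds and at 11.3% and 19.8% on the arms.

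The overlap varied by scaffold and by score. On U, 6 of 6 and 16 of 16 control dBigH1 peaks lay on H1, on 2RHet 8 of 11 and 9 of 11, and on 3LHet 8 of 12 and 9 of 10. Uextra had 4 of 6 and 1 of 7. Control scaffold peaks on H1 had median scores of 62.3 and 65.6, against 74.1 and 90.4 for those off H1. Their highest scores were 181 and 165, against 3100 and 3100 off H1. With scores of 100 or more, 4 of 8 and 8 of 13 lay on H1. Of control dBigH1 scaffold peaks with scores of 200 or more, a limit chosen after the values were seen, 0 of 3 and 0 of 4 lay on H1. Below that score 32 of 40 (80.0%) and 36 of 44 (81.8%) did. Control peaks that recurred sat on H1 in 7 of 13 and 7 of 13 cases, and non-recurring peaks in 25 of 30 and 29 of 35. Seen from H1, 2 (0.583%) and 2 (0.368%) of its scaffold peaks in induced cells overlapped a peak of the matching dBigH1 list. In control cells 31 of 308 (10.1%) and 34 of 378 (8.99%) did. The arm shares were 3.62% and 2.996% in induced cells and 1.85% and 2.79% in control cells. The induced scaffold shares were limited by the 3 and 2 dBigH1 scaffold peaks there. Their contrast with control cells thus follows the dBigH1 peak numbers.

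Between the antibodies, the log2 ratio of induced to control scaffold peak number was -4.21 for dBigH1 and 0.34 for H1, whose groups overlapped. The difference of -4.55 had an exact permutation p of 0.111, where the smallest of 36 arrangements is 0.0556. At equal list length it was -1.68 (exact permutation p = 0.0556).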

How the data were processed

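ChIP-seq peak lists of 8 libraries were analysed, 1 per library. Per the submitters' processing notes Bowtie 0.12.5 and MACS 1.4.2 were among the tools, with dm3 as the build; settings, the use of the inputs and the treatment of multiply matching reads are not given in the sources used here. The deposited lists hold a position and a score for each peak. This score comes from the authors, is 50 or more in each list, and in peak files of this MACS version is the negative log10 of the p-value times 10, so that 50 stands for 1e-05. It was used only within a list. Starts were counted from 1.

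Peaks were counted, merged and overlapped (1 bp or more) with Python 3.11.15, NumPy 2.4.6, pandas 2.3.3 and SciPy 1.17.1. Conditions were compared on mean log2 values by exact two-sided permutation, scaffolds and arms within libraries by an exact sign-flip test, and shares by exact (Clopper-Pearson) 95% intervals. Regions named are, per antibody and class, up to 10 that ranked best by score (mean over the lists holding them), the highest and widest peak of each library, the best shared H1 region of each scaffold, and dBigH1 regions held by 2 or more libraries. Single regions were not tested. The code was checked on simulated lists. The scaffolds, rules and tests were chosen with earlier results of these data known. The alternatives tried were the Het scaffolds alone, all scaffolds but Uextra, scaffold length counted from the first peak, scores of 100 or more, a 50% overlap, peaks joined below 1000 bp, equal list lengths, leaving out each replicate, and a replicate block; the highest 1000 H1 and 150 dBigH1 peaks and a 50% cover of the region were added after seeing the data.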

Additional observations from a re-analysis of the deposited data

Results flagged for a closer look

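Scaffold peak number was lower in induced cells for dBigH1 and higher for H1, whose groups overlapped. Alone and relative to the arms, it was flagged because both replicate numbers gave negative log2 ratios for dBigH1 and positive ones for H1. The replicate values below are thus no separate support, and the test relative to the arms was run only after flagging. The log2 ratio of induced to control scaffold peak number was -4.21 for dBigH1 and 0.34 for H1, a difference of -4.55. Permuting the conditions within each antibody gave an exact p of 0.111 over 36 arrangements, of which the smallest possible is 0.0556. Within replicate numbers the log2 ratios were -3.84 and -4.58 for dBigH1 and 0.16 and 0.52 for H1. Taken relative to the arms of the same list, the ratios were -2.70 for dBigH1 and 0.41 for H1, a difference of -3.11 at an exact permutation p of 0.0556, the smallest possible, so this design cannot pass 0.05. Within replicate numbers they were -2.31 and -3.08 for dBigH1 and 0.29 and 0.54 for H1. The induced dBigH1 lists are the shortest of the 8, with 196 and 238 peaks, and the difference in peak number was smaller in lists cut by score: -1.68 at equal length (exact permutation p = 0.0556) and -1.30 with the highest 1000 H1 and 150 dBigH1 peaks (exact permutation p = 0.0556). The dBigH1 log2 ratio relative to the arms was then -1.30 and -0.89. With scores of 100 or more that ratio was -0.33, with overlapping groups (exact permutation p = 0.667).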

How the results depend on the processing

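No permutation test with 2 libraries a group could pass 0.05, so alternatives bear on size and direction only. Depth is unknown. Of 203 alternative values for the comparisons, 172 held, 27 moved and 4 changed direction. The 172 include values equal to the main ones by construction, which could not have moved. These are the values of the replicate block, and the region counts where each peak had to be covered by its region. Such cover always holds for merged peaks. Values with a test were judged by direction whatever their size; the cause was not tested unless stated. With scores of 100 or more, recurrence was 71.7% (control H1) and 62.5% (control dBigH1, of 8 peaks). Regions then numbered 2 control-only and 88 shared by all 4 for H1 and 5 control-only for dBigH1. At equal list length recurrence was 80.8% (induced H1), 66.9% (control H1) and 80.0% (control dBigH1, of 5 peaks), with 4 control-only dBigH1 regions. With the highest 1000 H1 and 150 dBigH1 peaks it was 70.1%, 57.9% and 100%, the last of 4 peaks. Regions then numbered 2 control-only and 46 shared for H1 and 4 control-only for dBigH1. Joining left 15 induced-only H1 regions, and the Het scaffolds alone 7 control-only dBigH1 regions. With each replicate left out, region counts grow by construction: H1 106 to 210 induced-only, 40 to 68 control-only and 231 to 319 shared; dBigH1 1 to 2, 41 to 48 and 0 to 2. The dBigH1 difference in score rank between scaffolds and arms, -8.15 points, became 13.7 at equal length, 9.67 with the highest 150, and -19.0 to 2.69 with each replicate left out. The induced minus control share of dBigH1 on H1, 8.62 points, was -7.75 to 25 with each replicate left out, 41.9 at equal length and 60.8 with the highest 150. On single scaffolds the log2 ratio for H1 reversed on 2LHet (-0.39 at equal length, -0.29 with the highest 1000, -0.19 to 0.78 with each replicate left out) and U (-0.032 with scores of 100 or more, -0.0395 to 0.394 with each replicate left out), and for dBigH1 on 3RHet (0.50 at equal length and with the highest 150) and U (0.50 with the highest 150). Each of these dBigH1 values of 0.50 rests on 1 peak in induced replicate 1. Scores of 100 or more left no induced dBigH1 scaffold peak. The dBigH1 width and rank comparisons, the induced minus control overlap and induced dBigH1 recurrence thus gave no value there. No replicate could be left out of recurrence.

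Under a replicate block, log2 ratios of scaffold peak number were 0.34 (H1) and -4.21 (dBigH1), of covered length 0.39 and -3.56, and of scaffold to arm peaks 0.41 and -2.70, equal to the unblocked values by construction (exact sign-flip p = 0.5). Deviations of same-numbered libraries correlated at 0.488 for H1 (108 bins) and 0.0724 for dBigH1 (127 bins); with 2 pairs and no shared batch in the labels, the numbers were not taken as pairing.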

Other observations

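Recurrence of H1 scaffold peaks varied with the score. When each list was divided by score into 4 parts, 98.3% and 85.0% of the scaffold peaks in the highest part recurred in the other library in induced cells, and 96.2% and 94.4% in control cells. In the lowest part the shares were 84.1% and 19.6% in induced cells and 57.3% and 33.7% in control cells. On the arms, the highest part recurred in 83.6% and 78.2% of cases in induced cells and 80.7% and 78.0% in control cells. The lowest part of the arms recurred in 67.2% and 28.1% of cases in induced cells and 62.4% and 34.4% in control cells. In that part only induced replicate 1 had a higher share on the scaffolds than on the arms.

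Neighbouring H1 peaks lay farther apart on the scaffolds than on the arms. The median gap was 13.5 and 7.46 kb on the scaffolds in induced cells and 12.4 and 11.3 kb in control cells, against 4.36 and 2.32 kb on the arms in induced cells and 3.82 and 2.35 kb in control cells.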
